A study of Mus musculus with 9 samples.

Results

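The CC chemokine genes expressed by macrophages were examined in sorted mouse liver macrophages by RNA-seq. The members were the rows of the raw count table that carry the symbols Ccl2, Ccl3, Ccl4, Ccl5, Ccl6, Ccl7, Ccl9, Ccl17, Ccl22 and Ccl24, 10 of the 23413 genes listed. All 10 passed the filter on low counts that left 11393 genes for testing. CC chemokines are small secreted proteins with a pair of adjacent cysteines near the N-terminus. They bind G-protein coupled receptors of the CCR family on leukocytes and direct their migration along a gradient. In the fatty liver, macrophages are a known source of these ligands, and the recruitment of monocytes through CCR2 is the best studied of their actions.

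The sample titles name 9 mice, which were male C57BL/6 by the study's methods, 2 fed normal chow (NC), 3 fed a high-fat diet (HFD) and given vehicle (PEG3000), and 4 fed HFD and given DPI (diphenyleneiodonium), which the study uses as an agonist of the receptor GPR3. The mice were 5 weeks old when the diets began, the diets lasted 8 weeks, and injections of DPI (2 mg/kg) or vehicle began in week 3 and were repeated at intervals of 5 days. The treatment protocol in the labels instead describes purified cells given DMSO or 500 nM DPI for 24 h, so the groups follow the titles and the series' design text. Cells were sorted as F4/80+CD11b+Gr1low, a gate that by the study's methods is mostly Kupffer cells (KCs), the resident macrophages of the liver. Each title names a single mouse, but the study describes more mice per group for the sort than there are libraries, and whether cells of several mice were pooled is not given. The p-values measure only the spread between these libraries. The labels give "n/a" as the treatment of the NC mice, and whether these were injected is not given, so diet and injection cannot be told apart between NC and HFD vehicle.

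Library totals lay between 3534325 and 15585775 counts (median 4918629), of which 27.0% to 44.5% fell on the ribosomal RNA precursor Rn45s. A count of 3, taken as the smallest told apart from none, corresponded to between 0.184 and 1.02 CPM, counts scaled to a common library size after TMM scaling, which aligns the bulk of genes between libraries. The NC libraries stood apart from each other, with a rank correlation of 0.740 against 0.838 to 0.887 for the other pairs within a group. The genes most particular to resident KCs were low or at 0 in most libraries. Clec4f, the KC lectin, had 0 and 45.6 CPM in NC, 9.32, 0 and 0 CPM with vehicle and 13.4, 2.04, 0.742 and 0.612 CPM with DPI, and Marco had at most 1 count in any library. Of the 11 KC genes listed, 0 to 6 were at 0 in a library, but Id3, which other cells express as well, had 136 to 918 CPM and was called higher with HFD (log2 fold change 1.76), and Nr1h3 had 4.92 to 39.1 CPM. Of the 6 KC genes tested, 3 had positive and 3 negative log2 fold changes with HFD, with Clec1b called lower (-3.37) from 2 and 163 counts in NC against 17, 1 and 2 counts with vehicle, which overlap, and DPI against vehicle called Spic lower (-2.25). The summed level of the 11 genes, of which Id3 was the largest part, was 233 and 271 CPM in NC, 476 to 973 CPM with vehicle and 278 to 542 CPM with DPI. The summed level of 6 monocyte genes was 3115 to 6569 CPM and that of 6 general macrophage genes 949 to 1491 CPM, the monocyte sum being the higher in every library. The cells are called liver macrophages here after the sort, not after these markers. With HFD 1 of the 6 monocyte genes was called higher (Ly6c2 at 1.04) and 1 of the macrophage genes lower (Emr1, which encodes F4/80, at -1.05), and DPI against vehicle called 0 of either list. Values with NC library 1 or 2 left out are given wherever they change the call of one of the 10 genes, and were not computed for other genes.

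Of the 10 genes, 7 lie on mouse chromosome 11. On GRCm38, the assembly of mm10, GENCODE release M21 places Ccl2 at chr11:82035571-82037453 and Ccl7 at chr11:82045712-82047525, 8.26 kb apart. Ccl5 (chr11:83525778-83530518), Ccl9 (chr11:83572919-83578636), Ccl6 (chr11:83587882-83593087), Ccl3 (chr11:83647844-83649355) and Ccl4 (chr11:83662584-83664683) follow 1478 kb further along. Ccl22 (chr8:94745590-94751699) and Ccl17 (chr8:94810453-94812036) are 58.8 kb apart on chromosome 8, and Ccl24 is at chr5:135569937-135573049. All are protein-coding, with 3 or 4 exons. Ccl3 and Ccl4 lie on opposite strands, 13.2 kb apart in GENCODE. RefSeq on GRCm38.p6 gives Ccl4 a longer span, chr11:83648624-83664683, of which 755 bases overlap its span of Ccl3. Which annotation and strand setting the counting used is not given in the sources used here, so any reads of that overlap cannot be assigned to either gene with certainty.

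The sequences upstream of 2 neighbouring pairs are shown because both members of each pair are read side by side below. RefSeq sequence of GRCm38.p6 was matched for 5 of the 10 genes (Ccl22, Ccl17, Ccl9, Ccl6 and Ccl3) in windows from 250 bases before to 50 after the RefSeq start. Only bases before the GENCODE start are printed, 5′ to 3′ on the strand of the gene. For the chromosome 8 pair, Ccl22 (chr8:94745434-94745589, plus strand) and Ccl17 (chr8:94810203-94810452, plus strand), capitals mark matches to TTCNNNNGAA or TTCNNNGAA, the palindromes read by STAT proteins, of which STAT6 mediates the IL-4 response.
Ccl22: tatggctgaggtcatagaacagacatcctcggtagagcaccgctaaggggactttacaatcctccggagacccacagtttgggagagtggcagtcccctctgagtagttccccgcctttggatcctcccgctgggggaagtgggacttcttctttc
Ccl17: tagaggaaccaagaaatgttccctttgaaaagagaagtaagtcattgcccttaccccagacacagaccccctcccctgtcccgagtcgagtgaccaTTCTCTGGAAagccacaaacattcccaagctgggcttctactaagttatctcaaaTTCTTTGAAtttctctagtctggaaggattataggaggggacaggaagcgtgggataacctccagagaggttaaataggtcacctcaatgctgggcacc
For the chromosome 11 pair, Ccl6 (chr11:83593088-83593337, minus strand) and Ccl9 (chr11:83578637-83578886, minus strand), capitals mark the longest run of bases the windows share.
Ccl6: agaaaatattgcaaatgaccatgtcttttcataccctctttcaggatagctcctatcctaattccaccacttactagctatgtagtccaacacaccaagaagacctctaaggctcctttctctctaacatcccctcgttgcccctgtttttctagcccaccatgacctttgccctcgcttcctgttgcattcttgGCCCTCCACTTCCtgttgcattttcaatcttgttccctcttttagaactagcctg
Ccl9: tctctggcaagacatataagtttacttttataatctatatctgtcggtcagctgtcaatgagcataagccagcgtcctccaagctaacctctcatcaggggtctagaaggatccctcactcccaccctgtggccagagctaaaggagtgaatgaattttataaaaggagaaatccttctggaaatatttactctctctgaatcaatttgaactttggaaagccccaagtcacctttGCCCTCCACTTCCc
The shared run of Ccl6 and Ccl9 was 13 bases long and began 55 bases before the start of Ccl6 and 14 before that of Ccl9, while every other pair among the 5 windows shared at most 10. Ccl17 held 1 match to TTCNNNNGAA, found in 6.95% of the 32851 RefSeq windows, and 1 to TTCNNNGAA, found in 8.3%. Ccl9 also held matches to the NF-kappaB motif (6.93% of windows), TATAAA (13.6%) and TGANTCA (7.81%), on either strand. Of its 3 TATAAA matches, 2 overlap each other. The pattern TGANTCA allows any middle base, where the AP-1 motif has C or G. The match in Ccl9, TGAATCA, has A there and so is not an AP-1 motif. The windows of Ccl22, Ccl6 and Ccl3 held no match to these 5 motifs. A match is a string of letters in the window and not a measured site.

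Together the 10 genes made up 0.239% to 0.442% of a library. Ccl6, a mouse ligand of CCR1 made by myeloid cells, was the largest part of that sum in every library, from 31.7% to 52.8% of the CC chemokine counts. Ccl9, its neighbour and also a CCR1 ligand, held 12.0% to 23.6%. Ccl5 varied the most among the abundant members, from 4.18% in NC 1 to 29.5% in DPI 2. Ccl4 held 6.94% and 8.01% of the sum in NC, 16.1%, 9.99% and 13.5% of it with vehicle, and 4.22%, 6.91%, 10.6% and 8.78% of it with DPI. Its share was thus higher in each vehicle library than in either NC library, whereas the DPI libraries spanned the NC values. The 95% exact binomial interval of a share covers counting error only, because reads copied from the same molecule during amplification were not told apart.

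**Figure D1:**
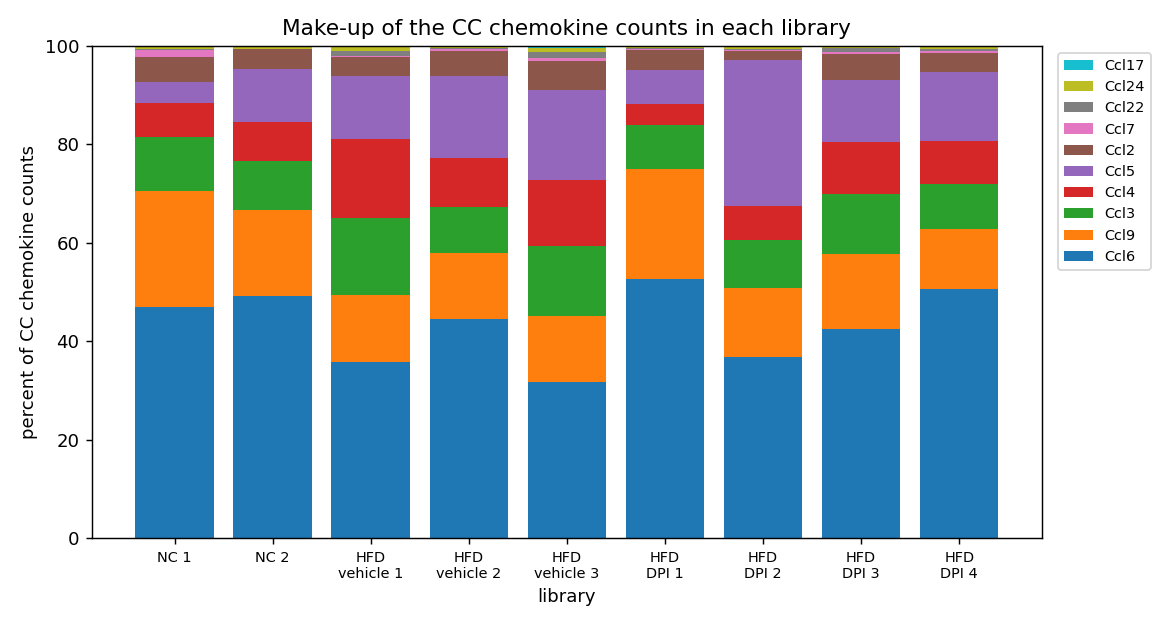
Stacked bars give the percent of the CC chemokine counts (y axis) taken by each of the 10 genes in each of the 9 libraries (x axis). Ccl6 is the largest segment in each bar, at 31.7% to 52.8%, and the red Ccl4 segment is widest in HFD vehicle 1, at 16.1%.

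Levels of different genes were compared as CPM per kb of exon, and a pair was taken as within its spread where the means differed by less than the larger SD. In NC, Ccl6 came first at 890 ± 320 CPM per kb (SD, n = 2), followed by Ccl5 (406 ± 349), Ccl3 (356 ± 94.2) and Ccl4 (305 ± 129), which lay within their spread of each other. Ccl9 (174 ± 20.9) and Ccl2 (148 ± 27.3) followed, also within their spread. With vehicle, Ccl5 (1134 ± 334 CPM per kb, SD, n = 3) and Ccl6 (989 ± 329) lay within their spread, as did Ccl6 and the next gene, Ccl4 (731 ± 54.1), while Ccl3 (623 ± 69.8) lay below Ccl4. With DPI the order of the first 6 genes was that of NC again, Ccl6 at 1060 ± 222 and Ccl5 at 952 ± 487 CPM per kb (SD, n = 4), Ccl3 at 441 ± 118 and Ccl4 at 395 ± 184, and then Ccl9 at 175 ± 47.2. Neighbours in this order lay within their spread except Ccl5 and Ccl3, and Ccl4 and Ccl9. Ccl7, Ccl24, Ccl17 and Ccl22 filled the last 4 places in every group, with Ccl22 last at 0.165 ± 0.115 CPM per kb in NC, 12.7 ± 8.60 with vehicle and 6.84 ± 5.19 with DPI.

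**Figure D2:**
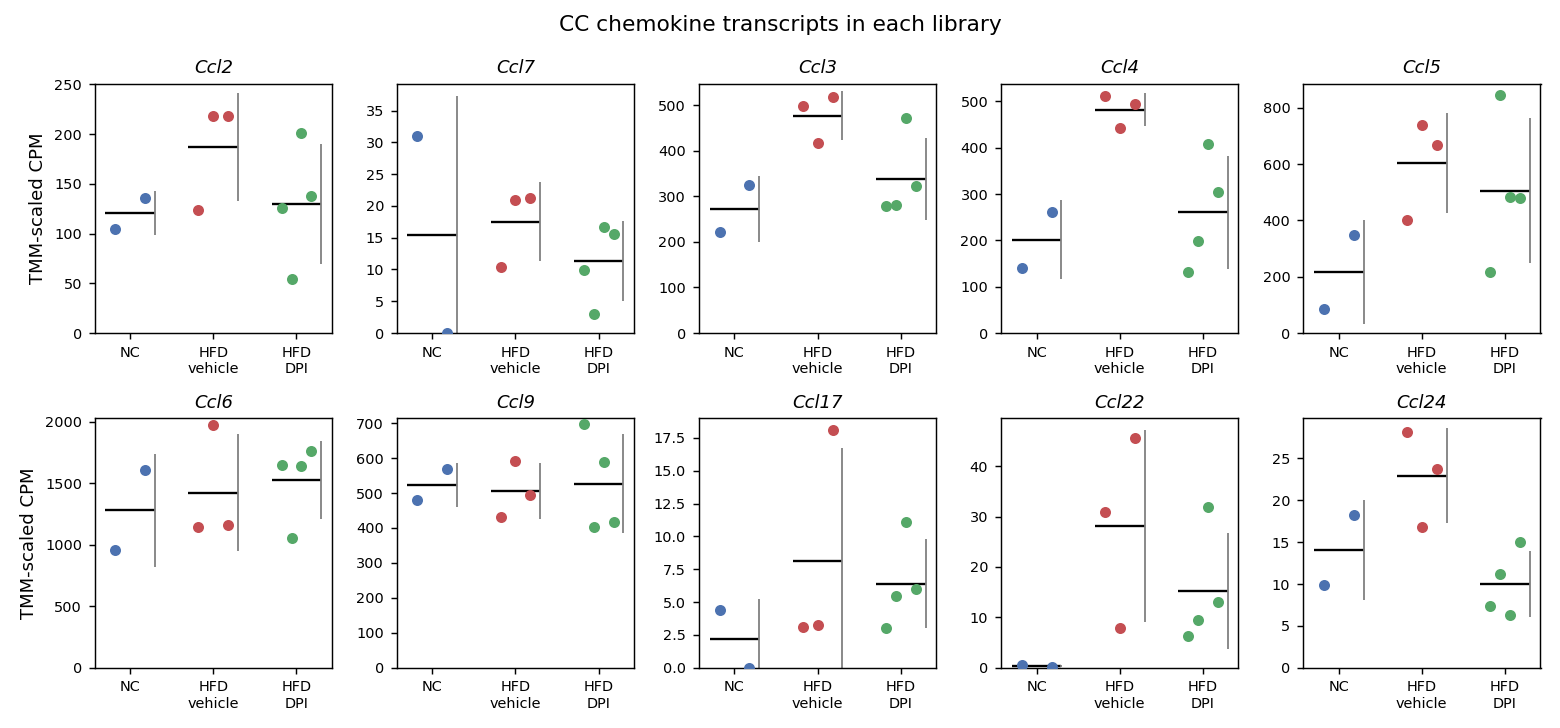
Each panel plots 1 gene, with TMM-scaled CPM on a linear y axis from 0 and the 3 groups on the x axis. Points are libraries, horizontal bars the group means and vertical lines the SD, which the axis cuts at 0, and Ccl22 is near 0 in both NC libraries but between 6.25 and 45.6 CPM in the 7 HFD libraries.

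The first question was whether HFD changed these transcripts. The call used in the study's methods asks for a change of at least 2-fold and an unadjusted p under 0.05, here from edgeR. By it, 3 of the 10 genes were higher with HFD vehicle than with NC (Ccl4, Ccl5 and Ccl22) and 0 were lower. Over all genes tested, 7.03% were called higher and 4.63% lower. The median log2 fold change of the 10 genes was 0.76, beside 0.03 for all genes tested, and 9 of the 10 were positive. In 4 of the 10 (Ccl3, Ccl4, Ccl5 and Ccl22) each vehicle library was above both NC libraries, as was so for 15% of all genes, while 0 of the 10 had each vehicle library below both, as was so for 12.5%. With Benjamini-Hochberg adjustment over all genes, 0 of the 10 passed, 4 had an unadjusted p under 0.05 in edgeR, and 0.0614% of all genes (7) passed. DESeq2 gave 1 adjusted call among the 10, Ccl22, beside 312 over all genes. Leaving out an NC library leaves 1 in that group, so no adjusted call is read from those fits here.

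Markers of other cells differed in the same comparison. All 6 hepatocyte genes had negative log2 fold changes with HFD, of which 2 were called lower (Alb at -2.74 and Ttr at -4.85), and their sum was 97.6 and 201 CPM in NC, 61.3, 17.6 and 30.2 CPM with vehicle and 33.4 to 77.1 CPM with DPI. All 5 B cell genes in the table had positive ones, of which 1 was called higher (Cd79b at 2.73), and their sum was 14.9 and 69.1 CPM in NC, 93.4, 179 and 137 CPM with vehicle and 15.6 to 405 CPM with DPI. Over the 9 libraries r was -0.72 between Ccl22 and the hepatocyte sum, 0.72 between Ccl4 and the B cell sum and 0.78 between Ccl5 and the KC gene sum, which is mostly Id3, as descriptions. A gate on F4/80+CD11b+ cells does not select hepatocytes or B cells. The part of these cells in the chemokine values was not tested.

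The second question was whether DPI changed them in HFD-fed mice. Only Ccl24 was called, lower with DPI, so 1 of the 10 was called lower and 0 higher, beside 1.34% lower and 1.5% higher over all genes. Of the 10 log2 fold changes 8 were negative, and their median was -0.51 beside 0.04 for all genes. Ccl4 and Ccl24 were lower in each DPI library than in each vehicle library, as were 2.48% of all genes, and 0 were higher in each, as were 3.38%. The adjusted p was 0.999 for each of the 10 genes by edgeR, where 0% of all genes passed the adjustment, 470 genes had an unadjusted p under 0.05 and DESeq2 gave 2 adjusted calls, neither among the 10. With single libraries left out, the number of the 10 genes called ranged from 0 (without vehicle 1, vehicle 3 or DPI 1) to 2 (without DPI 3).

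In the comparison of DPI on HFD with NC, 2 of the 10 genes were called higher (Ccl5 and Ccl22) and 0 lower, beside 6.24% and 3.05% of all genes. The median log2 fold change was 0.28 beside 0.04 for all genes. Each DPI library was above both NC libraries for 1 gene, Ccl22, beside 11.7% of all genes, and below both for 0, beside 8.5%. After adjustment 0 of the 10 passed in edgeR, beside 0.00878% of all genes (1). DESeq2 gave 1 adjusted call among the 10, Ccl22, beside 219 over all genes. The 3 comparisons share libraries, the vehicle group in the first and second and the NC group in the first and the last, so a gene whose vehicle libraries are high gains in the first and loses in the second from the same values.

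**Figure D3:**
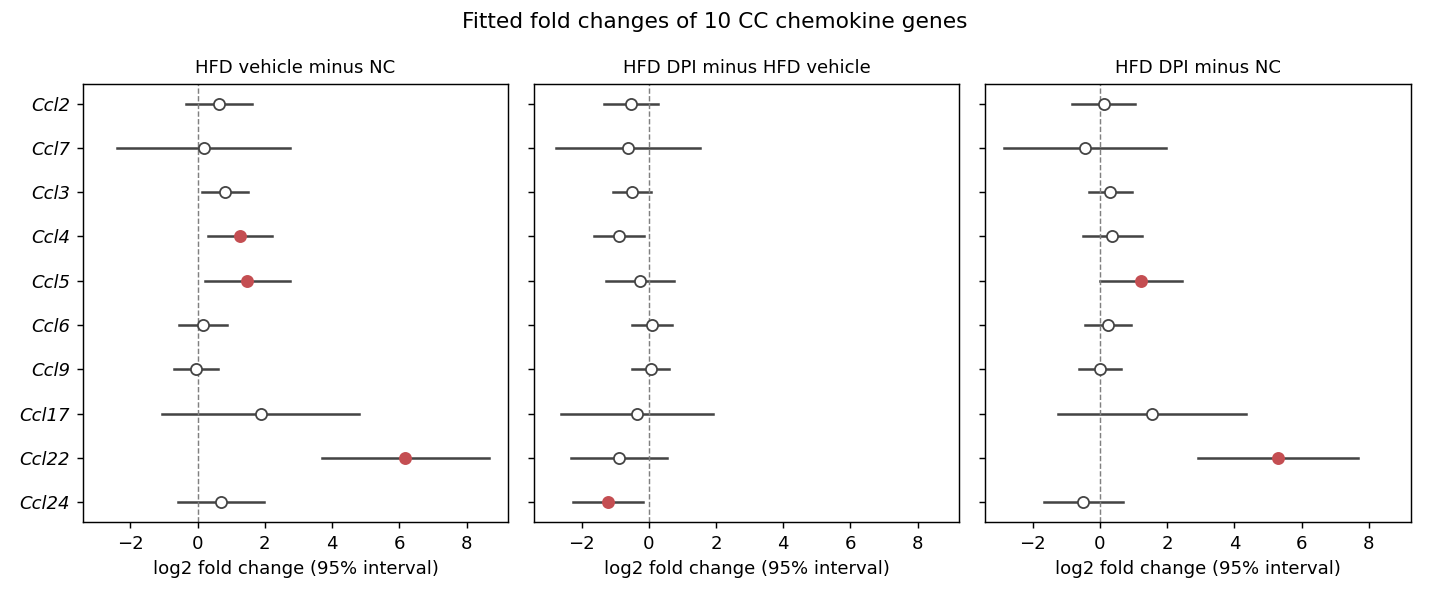
Fitted log2 fold changes of the 10 genes (x axis) with 95% intervals from the edgeR fit, 1 panel per comparison. Filled circles mark genes with an unadjusted p under 0.05 and at least a 2-fold change, which are Ccl4, Ccl5 and Ccl22 for HFD vehicle against NC, Ccl24 for DPI against vehicle and Ccl5 and Ccl22 for DPI against NC.

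Ccl4 and Ccl3, inflammatory chemokines that macrophages release on activation, had the most similar pattern of the 10 genes. Ccl4 (MIP-1β) had 141 and 261 CPM in NC, 511, 442 and 494 CPM with vehicle and 132, 198, 409 and 305 CPM with DPI. The vehicle libraries were the highest 3 of all 9 and close together, while DPI 1 lay below both NC libraries. Ccl4 was higher with HFD by a log2 fold change of 1.26 (SE 0.44, adjusted p = 0.288, edgeR). It fell to 0.89 without NC 1 and to 0.98 with library size scaling, both under 2-fold and so not called. DPI against vehicle gave -0.89 (SE 0.35, 95% interval -1.64 to -0.13, adjusted p = 0.999, edgeR), short of a 2-fold change. It was -1.19 without DPI 3 and -1.15 with the replicate number as a block, both past the threshold. DPI against NC gave 0.37 (SE 0.41, 95% interval -0.50 to 1.25).

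Ccl3 (MIP-1α), a ligand of CCR1, had 222 and 324 CPM in NC, 497, 416 and 518 CPM with vehicle and 279, 281, 471 and 322 CPM with DPI. Each vehicle library exceeded both NC libraries, and of the DPI libraries DPI 3 lay within the vehicle range. The log2 fold change was 0.81 (SE 0.32, adjusted p = 0.333, edgeR) with HFD, under 2-fold and so not called, although it reached 1.13 and was called without NC 2. For DPI against vehicle it was -0.50 (SE 0.26, 95% interval -1.05 to 0.06), and for DPI against NC 0.31 (SE 0.30). Over the 9 libraries the log2 CPM of Ccl3 and Ccl4 had a Pearson's r of 0.94 and a Spearman's rho of 0.93, the closest of any pair among the 10 genes, as a description over 9 points that share the groups.

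The ratio of Ccl4 to Ccl3 counts also varied between libraries. The ratio was 0.636 and 0.807 for NC, 1.03, 1.06 and 0.955 for vehicle and 0.472, 0.706, 0.869 and 0.948 for DPI, so each vehicle library was above every other library. The mean log2 ratio was 0.50 higher with vehicle than with NC, with a two-sided exact permutation p of 0.1, the smallest that 2 against 3 libraries allow. It was lower with DPI than with vehicle, by a difference of -0.49 with an exact permutation p of 0.114, where 0.0286 is the smallest possible. Of 12 such tests, of 4 ratios in 3 comparisons, the smallest adjusted p was 0.571.

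Ccl5 (RANTES), which draws T cells and is itself made in quantity by activated T and NK cells, had 85.1 and 347 CPM in NC, 402, 740 and 668 CPM with vehicle and 215, 846, 485 and 479 CPM with DPI. Both the lowest library (NC 1) and the highest (DPI 2) stood apart from their group. With HFD the log2 fold change was 1.48 (SE 0.59, adjusted p = 0.333, edgeR). It was 0.81 without NC 1 and 1.31 without vehicle 2, neither of them called, and 2.86 without NC 2. DPI against vehicle gave -0.25 (SE 0.47, 95% interval -1.26 to 0.75), an interval that includes a 2-fold decrease. DPI against NC gave 1.23 (SE 0.56, adjusted p = 0.463, edgeR) with overlapping groups. With single libraries left out it ran from 0.55, without NC 1 and not called, to 2.60. The call was also lost without vehicle 2 or vehicle 3, without DPI 2, DPI 3 or DPI 4, and with RLE scaling, library size scaling or a fit of the 2 groups only.

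Markers of T and NK cells, which the gate does not select, tracked Ccl5. The summed level of 13 such genes was 75.2 and 353 CPM in NC, 358, 492 and 456 CPM with vehicle and 300, 557, 423 and 342 CPM with DPI. Within each of the 3 groups the library with the most Ccl5 had the highest sum and the library with the least Ccl5 the lowest, and r over the 9 libraries was 0.95 as a description. Of the 13 genes, 4 were called higher with HFD and 0 lower, with log2 fold changes of 3.35 for Il2rb, 2.23 for Cd3e and 1.29 for Lck. DPI against vehicle called 0 of the 13, and DPI against NC called 4 higher. In NC 1, 3 of the 13 (Cd3g, Cd2 and Ncr1) were at 0. Of all genes tested, Ifng, the cytokine of activated T and NK cells, had the pattern most like Ccl5 (r of 0.97 over 9 libraries). The part of T and NK cell RNA in the Ccl5 differences was not tested, and in a bulk sample fewer cells of a type cannot be told apart from less RNA per cell.

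**Figure D4:**
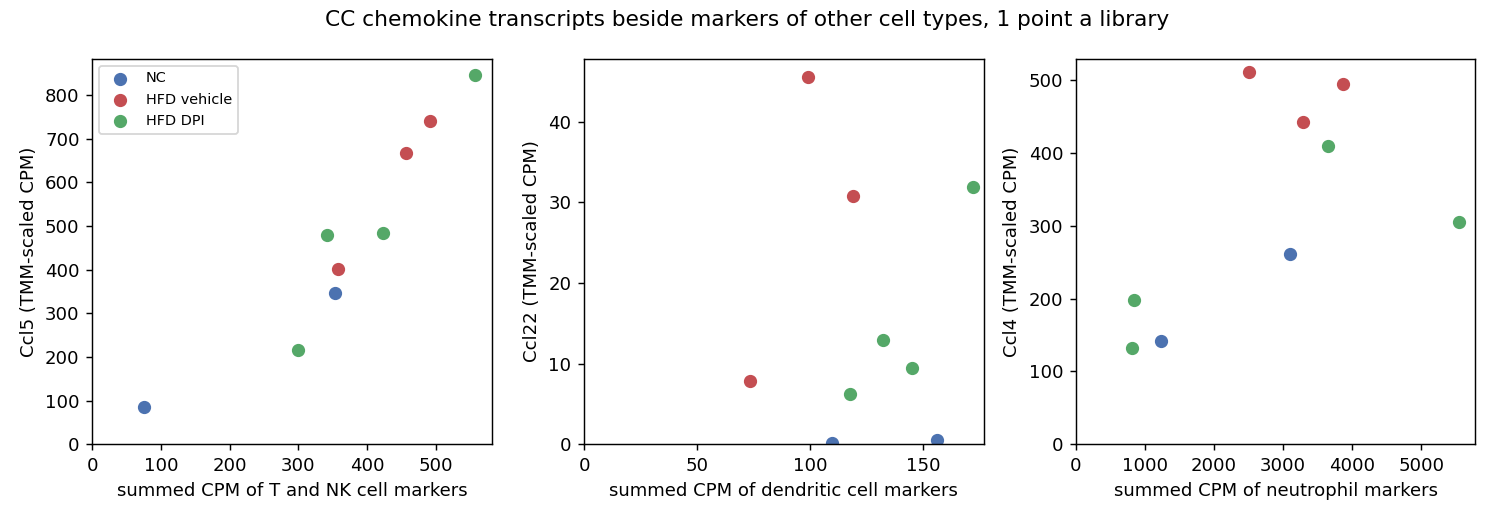
Each point is 1 of the 9 libraries, coloured by group, with the TMM-scaled CPM of a chemokine gene on the y axis and the summed CPM of a marker list on the x axis, both linear from 0. Ccl5 climbs with the T and NK cell sum (left), and Ccl22 does not follow the dendritic cell sum (middle, r of -0.03). The DPI libraries with little Ccl4 have few neutrophil marker counts (right), but the vehicle library with the most Ccl4 has the lowest neutrophil sum of its group.

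Neutrophil markers differed within the groups, although a Gr1low gate selects against neutrophils, which are high in Gr1. The summed level of 8 such genes was 1227 and 3106 CPM in NC, 2508, 3286 and 3860 CPM with vehicle and 813, 848, 3651 and 5547 CPM with DPI, with 0 of the 8 at 0 counts in any library. DPI 1 and DPI 2, the lowest of their group in Ccl4 at 132 and 198 CPM, were also the lowest in this sum. DPI 3, the highest of that group in Ccl4 at 409 CPM, was below DPI 4 in the sum. Vehicle 1, the highest of all libraries in Ccl4 at 511 CPM, had the lowest sum of the vehicle group. Over the 9 libraries r between Ccl4 and the sum was 0.78 as a description. HFD against NC called 0 of the 8 higher and 1 lower (Camp), and DPI against vehicle called 3 higher (Ngp, Camp and Ltf) and 0 lower, while the other 5 had negative log2 fold changes and the median of the 8 was -0.23. The part of neutrophil RNA in the Ccl4 and Ccl3 values was not tested.

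Ccl22 (MDC), a ligand of CCR4 made by dendritic cells and by macrophages under IL-4, showed the largest difference of the 10 genes. It had 3 counts and 1 count in the NC libraries, at or under the smallest number told apart from none, against 139, 43 and 184 counts with vehicle and 102, 28, 172 and 127 counts with DPI. In CPM the NC values were 0.546 and 0.187, the vehicle values 30.9, 7.80 and 45.6, and the DPI values 6.25, 9.51, 31.9 and 12.96. The HFD groups overlapped each other, and neither overlapped NC. Over pooled counts the level was 70.6 times that of NC with vehicle (95% counting interval 27.3 to 261) and 33.8 times with DPI (13.1 to 124), intervals that leave out the spread between mice.

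The fitted log2 fold change of Ccl22 was 6.18 (SE 1.15, adjusted p = 0.0631, edgeR) with HFD, at percentile 97.5 of all genes tested, and 5.29 (SE 1.11, adjusted p = 0.109, edgeR) for DPI against NC. With single libraries left out these ran from 5.65 to 7.09 and from 4.63 to 6.21. With 4 counts in NC, the size of these fitted values depends on the small count that the fit adds. Ccl22 also passed the low-count filter only through its HFD libraries. Its calls against NC, in the main fit or in the alternatives, are thus no separate support for a difference. The call of Ccl22 with HFD was kept under all 16 alternatives in which it was tested, with an adjusted p between 2.41e-05 and 0.201. DPI against vehicle gave -0.89 (SE 0.66, 95% interval -2.31 to 0.53, adjusted p = 0.999, edgeR). With single libraries left out it ran from -1.55, without DPI 3 and past the threshold, to -0.36.

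Ccl17 (TARC), the other CCR4 ligand, had 24 and 0 counts in NC, 14, 18 and 73 counts with vehicle and 50, 16, 60 and 59 counts with DPI. In CPM the NC values were 4.37 and 0, those of the vehicle group 3.11, 3.26 and 18.1, and those of the DPI group 3.06, 5.43, 11.1 and 6.02. Vehicle 3 was the highest, and NC 1 lay above the other vehicle libraries, so the groups overlapped. The log2 fold change was 1.88 (SE 1.36, 95% interval -1.05 to 4.81) with HFD and -0.34 (SE 1.05, 95% interval -2.60 to 1.91) for DPI against vehicle, neither of them called. Without NC 1, Ccl17 was called higher with HFD (8.77) and for DPI against NC (8.43), but these fits stand against the 0 counts of NC 2 alone and their size is no bound. The lowest Ccl17 values with a single library left out were 0.59 with HFD and 0.57 for DPI against NC. Among the members, Ccl17 was the nearest to Ccl22 (r of 0.77 and rho of 0.77 over 9 libraries). The Ccl22 to Ccl17 count ratio was 9.62, 2.35 and 2.51 with vehicle and 2.03, 1.73, 2.85 and 2.14 with DPI, but 0.143 in NC 1, and in NC 2 the genes had 1 and 0 counts.

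The summed level of dendritic cell markers did not follow Ccl22. The sum of 8 such genes was 156 and 110 CPM in NC, 119, 73.3 and 99.4 CPM with vehicle and 118, 145, 172 and 132 CPM with DPI. In the HFD groups its largest parts were Itgax (means of 31.7 CPM with vehicle and 32.5 CPM with DPI) and Cd209a (31.7 and 62.5 CPM). The sum thus says little about the other genes of the list. HFD against NC called 0 of the 8 genes in either direction, and DPI against NC called 1 (Cd209a, higher). Siglech, the plasmacytoid dendritic cell gene of the list, had 3 counts and 1 count in NC, 14, 17 and 6 counts with vehicle and 10, 15, 4 and 21 counts with DPI. Each HFD library was thus above both NC libraries in Siglech as in Ccl22, with log2 fold changes of 2.74 (SE 1.67) with HFD and 2.46 (SE 1.61) for DPI against NC, neither of them called. Zbtb46, a gene that defines conventional dendritic cells, was at 0 in NC 1, vehicle 2, vehicle 3 and DPI 1. Sinusoidal endothelial genes ran the other way, with a sum of 119 and 172 CPM in NC, 11.1, 9.43 and 6.44 CPM with vehicle and 123, 73.0, 4.27 and 26.6 CPM with DPI, and 3 of these 6 genes were called lower and 1 higher with HFD. DPI against vehicle called 2 of them higher (Stab2 at 4.50 and Clec4g at 5.46) and 0 lower. Over the 9 libraries r with this sum was -0.83 for Ccl22, -0.87 for Ccl4 and -0.88 for Ccl3, as descriptions. The part of either cell type in the Ccl22, Ccl4 and Ccl3 values was not tested.

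Ccr7, the receptor that guides dendritic cells and T cells to lymph nodes, was the receptor gene called higher with HFD. It had 0 and 250 counts in NC, 516, 1524 and 572 counts with vehicle and 554, 218, 656 and 3132 counts with DPI. In CPM this was 0 and 46.7 in NC, 115 to 276 with vehicle and 34.0 to 320 with DPI, with DPI 1 below NC 2. Each vehicle library was above both NC libraries, and DPI 4 held the most counts. The log2 fold change was 2.93 (SE 1.28, adjusted p = 0.362, edgeR) with HFD and -0.37 (SE 0.93) for DPI against vehicle. Its ligands Ccl19 and Ccl21a were at 0 counts in every library.

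The CCR2 ligands, which draw monocytes from the blood, were not called with all libraries included. Ccl2 (MCP-1) had 105 and 136 CPM in NC, 124, 218 and 218 CPM with vehicle and 125, 54.0, 201 and 138 CPM with DPI. Vehicle 1 lay between the NC libraries, and DPI 2 was the lowest of all 9. The log2 fold change was 0.63 (SE 0.46, 95% interval -0.36 to 1.63, adjusted p = 0.592, edgeR) with HFD and -0.53 (SE 0.38, 95% interval -1.34 to 0.29, adjusted p = 0.999, edgeR) for DPI against vehicle, and both intervals include a 2-fold change in these directions. Ccl7 (MCP-3) had 31.0 and 0 CPM in NC, 10.4, 20.9 and 21.3 CPM with vehicle and 9.87, 3.06, 16.7 and 15.6 CPM with DPI. The NC libraries thus held both its highest and its lowest value, and the interval with HFD ran from -2.40 to 2.75 on the log2 scale. Without NC 1, Ccl7 was called higher with HFD (log2 fold change 9.89) and for DPI against NC (9.26), against the 0 counts of NC 2 alone and so with no bound on the size. Without NC 2 the values were -0.79 and -1.41, neither of them called.

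In the 7 HFD libraries the ratio of Ccl7 to Ccl2 counts lay between 0.0596 and 0.114. In NC 1 it was 0.296, and NC 2 held 729 counts of Ccl2 but 0 of Ccl7. Ccl17 was also at 0 in NC 2, and Ccl7 and Ccl17, on different chromosomes, were each other's nearest member over the 9 libraries, with an r of 0.82 but a rho of 0.57.

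Ccr2, the receptor of Ccl2 and Ccl7, was called lower with HFD. It had 514 and 359 CPM in NC, 189, 223 and 147 CPM with vehicle and 713, 296, 204 and 255 CPM with DPI. Each vehicle library was below both NC libraries, and DPI 1 was the highest of all. The log2 fold change was -1.23 (SE 0.45, adjusted p = 0.306, edgeR) with HFD and 0.98 (SE 0.39, adjusted p = 0.999, edgeR) for DPI against vehicle, the latter short of a 2-fold change. Ccrl2, an atypical receptor that binds chemerin, had 171 and 174 CPM in NC, 300, 417 and 267 CPM with vehicle and 112, 100, 192 and 339 CPM with DPI. Its log2 fold changes were 0.93 (SE 0.47, adjusted p = 0.416) and -0.82 (SE 0.38, adjusted p = 0.999, edgeR), neither of them called.

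Ccl6, the member with the most counts in each library, and its neighbour Ccl9 did not differ between the groups beyond their spread. Ccl6 had 956 and 1608 CPM in NC, 1142, 1972 and 1160 CPM with vehicle and 1648, 1054, 1643 and 1760 CPM with DPI. Ccl9 had 479 and 568 CPM in NC, 432, 590 and 493 CPM with vehicle and 698, 402, 590 and 418 CPM with DPI. For both genes the 3 groups overlapped. The 95% intervals of the log2 fold change were -0.57 to 0.87 (Ccl6) and -0.70 to 0.60 (Ccl9) with HFD and -0.50 to 0.70 and -0.48 to 0.61 for DPI against vehicle, and each interval stays within a 2-fold change. Ccl6 and Ccl9 were each other's nearest member (r of 0.58 and rho of 0.55 over 9 libraries), and the ratio of Ccl9 to Ccl6 counts ranged from 0.238 to 0.501. Ccr1, their receptor, had log2 fold changes of 0.31 (SE 0.54) with HFD and 0.00 (SE 0.44) for DPI against vehicle.

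Ccl24 (eotaxin-2), which draws eosinophils through CCR3 and is made by macrophages under IL-4, was the gene called with DPI. It had 9.83 and 18.3 CPM in NC, 28.2, 16.9 and 23.8 CPM with vehicle and 7.36, 11.2, 6.31 and 15 CPM with DPI. Each DPI library was below each vehicle library, the nearest being DPI 4 and vehicle 2, while vehicle 2 lay below NC 2. The vehicle mean was 22.9 ± 5.71 CPM (SD, n = 3), and the DPI mean 9.97 ± 3.96 CPM (SD, n = 4), for a log2 fold change of -1.20 (SE 0.48, 95% interval -2.24 to -0.16, adjusted p = 0.999, edgeR), at percentile 4.17 of all genes tested. The call was lost without vehicle 1 (log2 fold change -1.03), vehicle 3 (-1.18), DPI 1 (-1.08) or DPI 3 (-1.04). HFD against NC gave 0.70 (SE 0.59, 95% interval -0.57 to 1.98) and DPI against NC -0.50 (SE 0.55).

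Eosinophil genes differed between the same groups. Prg2, the major basic protein, had 0 and 0.187 CPM in NC, 0, 1.81 and 0 CPM with vehicle and 79.4, 90.0, 0.371 and 47.8 CPM with DPI. Of the 5 eosinophil genes tested, DPI against vehicle called 3 higher (Prg2, Epx and Ear1) and 0 lower, with Ear2 at -0.41 and Il5ra at -0.09. Ear2, at 52.0 to 96.3 CPM in the NC and vehicle libraries and 29.7 to 64.9 CPM with DPI, made up most of the sum in the former, and the summed level of all 6 was 103 and 73.6 CPM in NC, 58.2 to 73.5 CPM with vehicle and 35.1 to 172 CPM with DPI. Epx was at 0 in both NC libraries, in the 3 vehicle libraries and in DPI 3. DPI 3, with little Prg2, had the lowest Ccl24 of all libraries. Ccr3 had 3 counts in vehicle 3, 6 in DPI 4 and 0 elsewhere and was not tested for that reason. The part of eosinophil RNA in the Ccl24, Ccl2, Ccl3 and Ccl4 values was not tested.

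Of 11 CC chemokine receptor genes, with Ccrl2 counted among them, 8 passed the filter. HFD against NC called 1 higher (Ccr7) and 1 lower (Ccr2), and the other 2 comparisons called 0. Ccr4, the receptor of Ccl17 and Ccl22, had at most 17 counts in any library, and Ccr8 had 0 in every library. Of 11 further CC chemokine genes, 1 passed the filter (Ccl25), while Ccl1, Ccl19, Ccl20, Ccl21a and Ccl26 had 0 counts in every library. Ccl25, a ligand of the gut-homing receptor CCR9, had 0 counts in both NC libraries, 0, 14 and 3 counts with vehicle and 83, 11, 1 and 1 counts with DPI, and was called higher for DPI against NC (adjusted p = 0.457, edgeR). DPI 3 and DPI 4 held 1 count each, which does not differ from none. Ccl25 passed the filter only through HFD libraries, so its call against NC, at 0 counts, is no separate support for a difference. Of the 4 atypical chemokine receptor genes Ackr1 to Ackr4, 0 passed the filter.

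Subunits and feedback inhibitors of NF-kappaB, the transcription factor under which Ccl2, Ccl3, Ccl4 and Ccl5 are induced in macrophages, were all tested. With HFD 1 of the 10 was called, Nfkbia, the inhibitor that NF-kappaB itself induces, and 5 had each vehicle library above both NC libraries, beside 7.03% of all genes called higher and 15% with each vehicle library above. Nfkbia had 268 and 328 CPM in NC, 568, 691 and 597 CPM with vehicle and 340, 340, 629 and 760 CPM with DPI. Each HFD library was above both NC libraries, and DPI 1 and DPI 2 lay closest to NC. The log2 fold change was 1.05 (SE 0.37, adjusted p = 0.289, edgeR) with HFD and 0.80 (SE 0.35, adjusted p = 0.451, edgeR) for DPI against NC, and DPI against vehicle called 0 of the 10. Rela, with the smallest p of the list for DPI against vehicle, had a log2 fold change of -0.56 (SE 0.28, adjusted p = 0.999, edgeR).

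Of 10 genes of the IL-4 and STAT6 response, HFD against NC called 1 higher (Mgl2) and 1 lower (Retnla), DPI against vehicle called 0 and DPI against NC called 1 higher (Mgl2). Mgl2, a lectin of macrophages and dendritic cells under IL-4, had 0 counts and 1 count in NC, 19, 3 and 7 counts with vehicle and 175, 24, 38 and 46 counts with DPI. Retnla (RELMα) had 266 counts in NC 2 and 0 in NC 1, 0, 0 and 3 counts with vehicle and 0, 2, 55 and 19 counts with DPI, so its call rested on NC 2. Stat6 had 130 and 52.9 CPM in NC, 68.4, 79.6 and 87.5 CPM with vehicle and 62.8, 71.0, 70.9 and 73.0 CPM with DPI, with NC 1 as the highest library. Over all genes tested, 7.03% were called higher and 4.63% lower with HFD, and 6.24% and 3.05% for DPI against NC. Ccl22 and Ccl24 are both induced by IL-4 in macrophages, but Ccl24 was not called with HFD. The part of IL-4 in the Ccl22 and Ccl24 values was not tested.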

How the data were processed

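Libraries of sorted liver macrophages were analysed, 9 in all, 2 NC, 3 HFD vehicle and 4 HFD DPI, with groups taken from the sample titles. The authors deposited raw counts per gene in a single table of mm10 genes, without normalization, and 0 of its columns were left unmapped. The submitters' processing notes name TopHat2 and edgeR, whereas the study's methods name bowtie2 and RSEM, and the strand setting of the counting is not given in the sources used here.

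Counts were filtered with filterByExpr of edgeR 4.0.16 (R 4.3.3), scaled by TMM and fitted over the 3 groups with glmQLFit and glmQLFTest. P-values were adjusted by the Benjamini-Hochberg method over 11393 genes, and calls needed at least a 2-fold change and an unadjusted p under 0.05. Likeness between genes used log2 CPM with a prior count of 2, and count ratios were offset by 0.5 and compared by two-sided exact permutation tests. Lengths and positions came from GENCODE M21. Totals of 3534325 to 15585775 counts set the precision. Alternatives were other scalings and filters, DESeq2 1.42.0, fits of 2 groups, the replicate number as a block, removal of Rn45s and each library left out. The edgeR step was tested on simulated data. All 10 members were named, with at most 3 genes of smallest p per list and comparison, the nearest gene to a member, and genes of the marker lists that define a cell type. Levels of further listed genes were added after their values were seen. The members and lists were chosen with earlier results of these data known.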

Additional observations from a re-analysis of the deposited data

Results flagged for a closer look

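Ccl6 in the DPI group was the single value set apart from its group by more than Dixon's 95% limit for 4 samples. DPI 2 had 1054.28 CPM of Ccl6, whereas the other DPI libraries had 1643 to 1760 CPM. The gap to the nearest library was 0.834 of the whole range, just past the limit. DPI 2 was the library with the fewest counts, 3534325, and held 3104 counts of Ccl6. Of 24 series of 4 values examined this was the only one past the limit, and chance passes it in about 1 of 20. Without DPI 2 the log2 fold change of Ccl6 for DPI against vehicle was 0.23, and it was not called with that library either.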

How the results depend on the processing

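Of the settings tried, 449 of the member fold changes kept their direction and their side of the threshold, 28 changed sign, 17 were no longer past the threshold and 7 passed it anew. For HFD against NC, 3 of the 10 genes were called, and 2 to 4 with any alternative. Adjusted calls among the 10 rose from 0 to 1 with no low-count filter and with DESeq2, and were 0 to 2 with single libraries left out. For DPI against vehicle, the 1 call became 2 with the replicate block and 0 to 2 with single libraries left out. For DPI against NC, the 2 calls became 1 with RLE scaling, library size scaling, at least 10 counts in every sample or fits of 2 groups only, and 1 to 3 with single libraries left out. Adjusted calls there rose from 0 to 1 with no low-count filter and with DESeq2, and were 0 to 1 with single libraries left out.

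Under scaling by library size the median over all genes went, in log2, from 0.03 to -0.26 with HFD, from 0.04 to 0.12 for DPI against vehicle and from 0.04 to -0.17 for DPI against NC, and the calls with HFD from 801 higher and 528 lower to 539 and 933. Under it the values with HFD were -0.11 for Ccl6, -0.17 for Ccl7 and 0.98 for Ccl4, and those for DPI against NC were -0.067 for Ccl2 and -0.19 for Ccl9. Ccl9 in that comparison was -0.028 with RLE scaling and -0.028 with DESeq2.

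The replicate numbers do not pair the libraries, with correlations of deviations of -0.02 to 0.08 between same-numbered libraries. With the replicate block Ccl4 for DPI against vehicle was -1.15 and called, Ccl17 there was 0.065, and for DPI against NC Ccl2 was -0.26 and Ccl4 -0.037.

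With single libraries left out the sign changed for Ccl6 (-0.16 to 0.61), Ccl7 (-0.79 to 9.89) and Ccl9 (-0.18 to 0.11) with HFD, for Ccl6 (-0.049 to 0.41), Ccl9 (-0.10 to 0.19) and Ccl17 (-0.75 to 0.99) for DPI against vehicle, and for Ccl2 (-0.19 to 0.40), Ccl6 (-0.066 to 0.70), Ccl7 (-1.41 to 9.26), Ccl9 (-0.16 to 0.17) and Ccl24 (-0.87 to 0.045) for DPI against NC. The highest Ccl7 values are called, but stand against NC 2 alone, at 0 counts, and are no bounds. Leaving out an NC library leaves 1 in that group, assumed to vary like the others. The adjusted calls over all genes with HFD were 7, but 312 with DESeq2, 52 with no filter, 1 with at least 10 counts in every sample or library size scaling, and 0 to 568 with the block, 2 groups or single libraries left out, the highest without NC 2. Those for DPI against NC were 1, but 219 with DESeq2, 22 with no filter and 572 without NC 2. Genes called in either direction without NC 2 were 2634 with HFD and 2626 for DPI against NC. For DPI against vehicle they were 602 with no filter, 202 with at least 10 counts and 187 to 543 with single libraries left out. The cause of these changes was not tested.

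With 2 NC libraries and a filter at 10 counts, low members limit what could be seen. Ccl22, Ccl17 and Ccl7 could not be fitted under at least 10 counts in every sample.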
